A study of Bos taurus with 12 samples.

Results

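The microRNAs (miRNAs) bta-miR-10a, bta-miR-10b, bta-miR-196a and bta-miR-196b were examined in bovine granulosa cells, the somatic cells that line the follicle and nourish the oocyte. These 4 mature names were chosen because their genes lie in the Hox clusters, and they are 4 of the 755 mature names in the count data, which hold 906 pairs of a mature miRNA and a precursor. Where a name had several precursors, the entry with the highest total over all libraries was kept, which concerned bta-miR-196a among the 4. Small RNA had been sequenced in 12 libraries from subordinate (SF) and dominant (DF) follicles, with 3 biological replicates for each follicle class on day 3 of the estrous cycle and again for each on day 7. All donors were Simmental heifers, and all of them, whatever the group, had been synchronized with the prostaglandin analogue cloprostenol and the GnRH analogue buserelin. SF and DF were told apart by diameter alone, with limits that differed between the days, and day 3 and day 7 came from different heifers. On each day, both follicle classes were isolated from the ovaries of the same group of heifers. Granulosa cells were sedimented from follicular contents pooled by size class. For DF at day 7 the paper counted only 3 follicles, far fewer than the SF follicles on either day and also fewer than the DF follicles at day 3. The replicates were not tied to individual animals in the labels, so the p values measure the spread between these libraries.

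Hox genes encode transcription factors that set position along the body axis, and they lie in clusters whose gene order is shared among vertebrates. The clusters also hold miRNA genes, of which the miR-10 and miR-196 families are the best known. A miRNA pairs with messenger RNAs mainly through its seed near the 5′ end and lowers their translation or stability, and members of a family share that seed. Transcripts of Hox genes are among the known targets of both families, HOXD10 for miR-10b and HOXB8 for miR-196. In the RefSeq annotation of the ARS-UCD2.0 assembly, MIR10A lay within the span of HOXB3 and MIR10B within that of HOXD4. MIR196A-1 lay within HOXB9, MIR196A-2 between HOXC9 and HOXC10, and MIR196B between HOXA10 and HOXA9. The 4 names therefore stand for loci in each of the Hox clusters A, B, C and D.

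The libraries held 160418 to 405129 reads on known miRNAs, with a median of 297448.5, so that 3 reads made up 0.000741% to 0.00187% of a library. Levels are given as normalized counts, the reads divided by a median-of-ratios size factor for each library, and groups as mean ± SD over 3 replicates. The abundance of the 4 miRNAs was very uneven. Over the 12 libraries bta-miR-10b had 486353 reads and bta-miR-10a 2925, whereas bta-miR-196a had 24 and bta-miR-196b 7. The mature forms of miR-10a and miR-10b are nearly identical, as are those of miR-196a and miR-196b, so reads with sequencing or end variation could have been counted under the other member. Levels of different miRNAs also carry the ligation preferences of library preparation, so these totals rank reads rather than molecules.

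In SF at day 3, bta-miR-10b had 41374, 39675 and 44712 normalized counts in replicates 1, 2 and 3. DF at day 3 had 44414, 31855 and 27818, a wider spread that overlapped the SF. In SF at day 7 the level was 51314, 58693 and 72455. In DF at day 7 it was 14727, 16216 and 15530. The DF libraries at day 7 were thus close to each other and low, and the highest of them lay below the lowest of the other 9 libraries, which had 27818. Separation of this group was common. It held for 45.7% of the miRNAs tested against SF at day 7 and for 50% against DF at day 3. The share of miRNAs separated from all 9 was not counted. In bulk cells, fewer cells of a type that carries a miRNA and less of it per cell cannot be told apart. Ordered by mean, SF at day 7 (60821 ± 10730) stood above SF at day 3 (41920 ± 2563), followed by DF at day 3 (34696 ± 8655) and DF at day 7 (15491 ± 745). Neighbours in this order were separated in every replicate, except SF and DF at day 3, whose means differed by 1.21-fold.

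The same order held for the share of all miRNA reads. bta-miR-10b made up 15.8 ± 1.08% of the reads in SF at day 3 and 14.0 ± 2.56% in DF at day 3. At day 7 its share was 20.9 ± 2.03% in SF and 5.65 ± 0.398% in DF. The Wilson 95% interval of a share in a single library reached at most 0.159 percentage points to either side, which covers counting error only. By abundance it held rank 1 or 2 among the miRNA names of each SF library, rank 2 in the DF libraries at day 3, and rank 3 or 4 in the DF libraries at day 7. A large part of all miRNA reads of SF granulosa cells at day 7 therefore came under a single name.

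**Figure D1:**
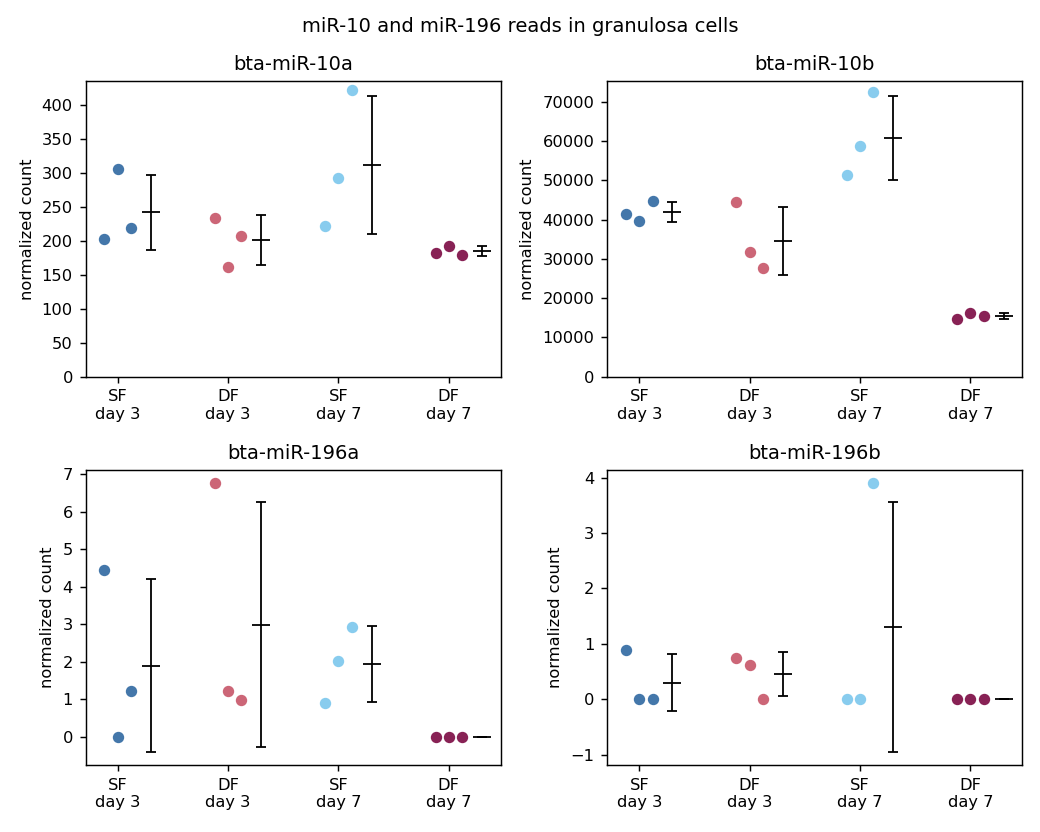
Normalized counts of the 4 miRNAs in each of the 12 libraries, by group, with 1 panel per miRNA; dots are replicates, black dashes the means and bars the SD (n = 3). The 3 DF libraries at day 7 are the lowest for bta-miR-10b, between 14727 and 16216, while bta-miR-196a and bta-miR-196b stay within a few counts of 0 in every group.

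For bta-miR-10a, SF at day 3 had 202, 306 and 219 normalized counts. DF at day 3 had 234, 162 and 208. SF at day 7 had 222, 293 and 423, and DF at day 7 had 183, 193 and 179. The 12 libraries lay closer together than for bta-miR-10b, with a ratio of 2.61 between the highest and the lowest library against 4.92. The order of the means was the same, from 313 ± 102 in SF at day 7 over 242 ± 55.5 and 202 ± 36.7 in SF and DF at day 3 to 185 ± 7.14 in DF at day 7, but no pair of neighbours in it was separated in every replicate. Its share of the reads lay between 0.0610% and 0.135%, which placed it between ranks 58 and 86 by abundance.

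bta-miR-196a was at the limit of detection. Replicates 1, 2 and 3 held 5, 0 and 1 reads in SF at day 3, and 9, 2 and 1 reads in DF at day 3. At day 7 SF held 1, 2 and 3 reads, and the 3 DF libraries held 0. In DF at day 7 a count of 0 still allows a share of 0.000974%, 0.00187% and 0.000919% in the 3 libraries, at 3 reads each. The counts under the precursors mir-196a-1 and mir-196a-2 came to 18 and 24 reads. They were equal in 9 libraries, and in the remaining 3 the mir-196a-1 entry was the lower one. bta-miR-196b had 1 read in a single SF library and 1 read in each of 2 DF libraries at day 3, 4 reads in a single SF library at day 7, and 0 in DF at day 7. Reads of these miRNAs were found in 8 and 4 of the 12 libraries, and none of those were DF libraries at day 7.

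The first comparison asked which miRNAs differ between SF and DF around follicle selection, at day 3. Here none of the 4 Hox cluster miRNAs passed the test. A miRNA was called where the log2 fold change was 1 or more in size, p did not exceed 0.05 and the Benjamini-Hochberg adjusted p over every miRNA tested did not exceed 10%, by the quasi-likelihood test of edgeR. The count called was 0 of 4 (0 at an unadjusted p under 0.05, and 0 called by DESeq2), where 5.67% of the 335 miRNAs tested were. The log2 fold change of SF over DF was 0.23 ± 0.13 (SE) for bta-miR-10b (edgeR, adjusted p = 0.287) and 0.22 ± 0.19 for bta-miR-10a (edgeR, adjusted p = 0.548). Those of bta-miR-196a and bta-miR-196b were -0.50 ± 0.92 and -0.38 ± 1.56, with errors larger than the values. Without DF replicate 1 the difference of bta-miR-10b was 0.45 (edgeR, adjusted p = 0.0119), past the p threshold but not the fold threshold. No member was separated between the groups in every replicate, against 27.8% of the miRNAs tested.

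At day 7, when the dominant follicle is established, bta-miR-10b was more abundant in SF than in DF granulosa cells, with a log2 fold change of 2.04 ± 0.19 (SE, edgeR, adjusted p = 6.10e-05), and it was higher in each of 3 SF libraries than in each of 3 DF libraries. bta-miR-10a was also higher in SF, by 0.83 ± 0.27 on the log2 scale (edgeR, adjusted p = 0.0402). This difference passed the p threshold but not the fold threshold. Without SF replicate 1 it passed both, with a log2 fold change of 1.03 (edgeR, adjusted p = 0.0159), and its adjusted p reached 0.167 without SF replicate 3. bta-miR-196a had 6 reads over the SF libraries and 0 over the DF libraries. This is 1.84-fold higher in SF at a floor of 3 reads over the DF group, with the SF count taken as exact, so it is not a lower bound. Its fitted log2 fold change of 4.07 ± 1.42 (edgeR, adjusted p = 0.0603) was called but depends on the small count added before taking logs. The call ended without SF replicate 2 (edgeR, adjusted p = 0.105), without DF replicate 1 (edgeR, adjusted p = 0.133), with a replicate block (edgeR, adjusted p = 0.156), at a false discovery rate of 5% and with a prior count of 2, where the fitted value was 0.99. DESeq2 gave it no adjusted p. bta-miR-196b was not tested, since too few libraries held a read. Its 4 reads in SF, all in replicate 3, were 1.22-fold above the same floor, again with the SF count taken as exact.

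The calls at day 7 were thus 2 of the 3 members tested, both higher in SF, against 33.4% of the 350 miRNAs tested in either direction, and DESeq2 called 1, bta-miR-10b. All 3 had a p under 0.05 and were separated in every replicate, while 45.7% of the miRNAs tested were separated. However, bta-miR-196a met the filter only through SF, which fixed its direction, and its separation rests on 1 to 3 reads per library. It is therefore no separate support here. The median log2 fold change of the 3 was that of bta-miR-10b itself, 2.04, beside -0.05 for all miRNAs tested. Of the 350 miRNAs, 34 (9.71%), bta-miR-10b included, had an SF excess at least as large. Among the 39 miRNAs with a mean of at least 1000 normalized counts it was 1 of 2.

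**Figure D2:**
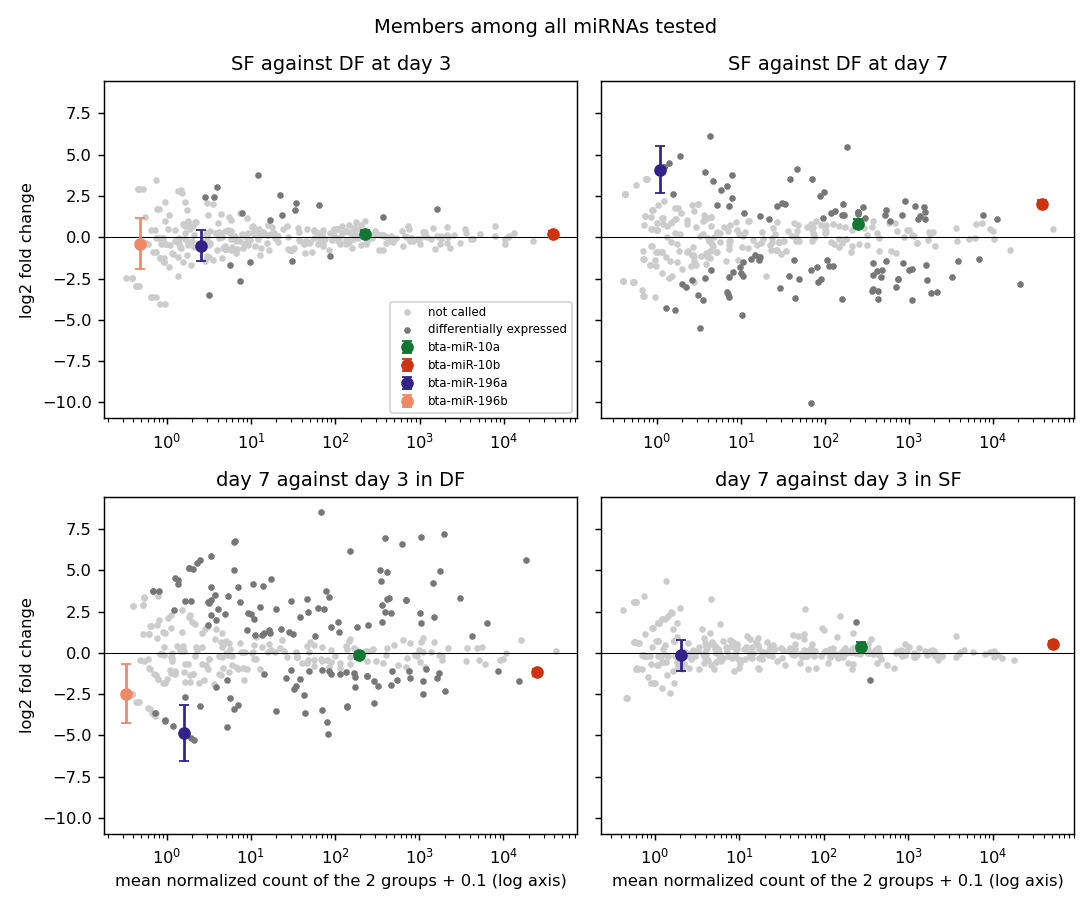
Log2 fold changes of the 4 miRNAs with their standard errors among all miRNAs tested, in each pairwise comparison, from edgeR. bta-miR-196b was not tested, and is not shown, in SF against DF at day 7 and between the days in SF. bta-miR-10b stands apart from 0 at day 7 (2.04) and between the days in DF (-1.18), whereas all 4 lie near 0 at day 3. bta-miR-196a was called in the same comparisons (4.07 and -4.85) from few reads. The error bars of bta-miR-196a and bta-miR-196b are wide wherever they were tested.

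The third comparison set DF at day 7 against DF at day 3, which came from different heifers and had different diameter limits. bta-miR-10b was lower at day 7 by 1.18 ± 0.20 (SE) on the log2 scale (edgeR, adjusted p = 0.000239), and each DF library at day 7 was below each DF library at day 3. bta-miR-10a differed little between the same groups, with -0.14 ± 0.23 (edgeR, adjusted p = 0.630). bta-miR-196a had 12 reads over the DF libraries at day 3 and 0 at day 7. This is 2.89-fold lower at the floor of 3 reads, with the 12 reads taken as exact. Its fitted log2 fold change was -4.85 ± 1.71 (edgeR, adjusted p = 0.0406). For bta-miR-196b, 2 reads against 0 gave no fold, and the fitted value of -2.48 ± 1.79 did not pass (edgeR, adjusted p = 0.297). The calls were 2 of 4 members, both lower at day 7, where 40.3% of the 360 miRNAs tested were called. DESeq2 called 1 of the 4 members, bta-miR-10b, and gave bta-miR-196a an adjusted p of 0.116. 2 of 4 were separated in every replicate, where 50% of those tested were. The members' median was -1.83 and that of all miRNAs tested 0.05. This median lies between bta-miR-10b and bta-miR-196b, so it does not describe the members as a set. Both miR-196 names met the filter only through DF at day 3, which fixed the direction of their values. bta-miR-10b was 1 of 84 miRNAs (23.3%) with a fitted fold change at least as low, and 1 of 7 among the 39 abundant ones.

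Both calls in DF leaned on DF day 3 replicate 1, which had the highest level of bta-miR-10b and 9 of the 12 reads of bta-miR-196a in that group. Without it the log2 fold change of bta-miR-10b was -0.9996, just short of the fold threshold (edgeR, adjusted p = 0.000969). That of bta-miR-196a was -3.48 (edgeR, adjusted p = 0.118). Without DF day 7 replicate 1, bta-miR-196a was likewise not called (edgeR, adjusted p = 0.115).

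In SF between the days, no member was called by edgeR or by DESeq2, and 1 had an unadjusted p under 0.05. Calls were rare in this comparison, 0.593% of the 337 miRNAs tested. That member was bta-miR-10b, whose log2 fold change of day 7 over day 3 was 0.55 ± 0.14 (edgeR, adjusted p = 0.127). Its SF libraries at day 7 all lay above those at day 3, a separation seen in 13.9% of the miRNAs tested. The adjusted p ran from 0.000892 to 0.538 over the alternatives, and the fold threshold was not reached under any of them. bta-miR-10a had 0.38 ± 0.26 (edgeR, adjusted p = 0.689) and bta-miR-196a -0.15 ± 0.94 (edgeR, adjusted p = 0.971). The level of bta-miR-10b was thus lower in DF at day 7 than in DF at day 3, while its difference in SF did not pass the test.

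Whether the difference between SF and DF itself changed from day 3 to day 7 was tested as an interaction over all 12 libraries. It was called for bta-miR-10b, whose SF excess was larger at day 7 by 1.70 ± 0.24 on the log2 scale (edgeR, adjusted p = 4.11e-05). The 3 other members were not called, with 0.49 ± 0.35 for bta-miR-10a (edgeR, adjusted p = 0.349), 4.58 ± 2.05 for bta-miR-196a (edgeR, adjusted p = 0.132) and 3.91 ± 2.51 for bta-miR-196b (edgeR, adjusted p = 0.295). The call was thus made for 1 of 4 members, and for 26.5% of the 378 miRNAs tested. Without SF day 3 replicate 1, which held 5 of the 6 reads of its group, the interaction of bta-miR-196a was called as well (6.16, edgeR, adjusted p = 0.0627). The comparisons share libraries, so these values are not independent of the pairwise ones.

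The near-identical miR-10a and miR-10b did not keep a fixed proportion. The ratio of their reads within a library does not depend on how libraries are scaled. In SF at day 3 there were 204, 130 and 204 reads of bta-miR-10b per read of bta-miR-10a, and in DF at day 3 there were 189, 197 and 134. SF at day 7 had 231, 200.1 and 171, whereas DF at day 7 had 80.5, 84.0 and 86.7. The DF libraries at day 7 lay below all others, which spanned 130 to 231. At day 7 the ratio was 2.38-fold higher in SF than in DF (log2 difference 1.25 ± 0.13 SE, exact permutation p = 0.1, two-sided), and in DF it was 2.04-fold lower at day 7 than at day 3 (log2 difference -1.03 ± 0.18, exact permutation p = 0.1). With 3 libraries against 3 the smallest p this test can give is 0.1, so neither difference can pass 0.05. The log2 ratio differed by 0.04 ± 0.28 between SF and DF at day 3 (exact permutation p = 0.6) and by 0.18 ± 0.25 between the days in SF (exact permutation p = 0.7).

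**Figure D3:**
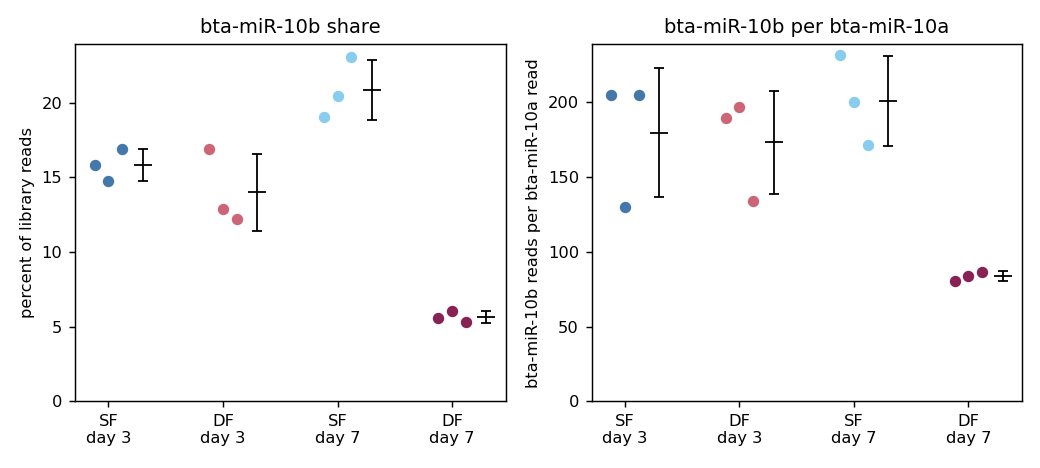
Share of bta-miR-10b among all miRNA reads (percent) and reads of bta-miR-10b per read of bta-miR-10a, in each library by group. The DF libraries at day 7 are lowest in both, at a mean of 5.65% of the reads and 83.7 reads per read.

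The miRNAs whose levels ran most like those of bta-miR-10b over the 12 libraries were bta-miR-335 (Pearson's r = 0.944 of log2 normalized counts plus 1), bta-miR-130a (r = 0.938) and bta-miR-339a (r = 0.895), out of 185 miRNAs with a mean of at least 10. bta-miR-339b is listed with the same counts as bta-miR-339a and cannot be told from it. Each of the 3 was lowest in DF at day 7. At day 3 the normalized count of bta-miR-335 was 305 ± 63.5 in SF and 150 ± 25.4 in DF, whereas at day 7 it was 358 ± 117 in SF and 9.09 ± 5.10 in DF. bta-miR-130a had 257 ± 38.4 in DF at day 7 and means of 358 to 482 in the other groups, and bta-miR-339a had 132 ± 2.31 and means of 345 to 392. The likeness came largely from the differences between groups, since after the group means were taken out r was 0.489, 0.640 and 0.258. bta-miR-10a was at position 39 in likeness to bta-miR-10b, with r = 0.719. After the group means were taken out its r was 0.546, above those of bta-miR-335 and bta-miR-339a and below that of bta-miR-130a.

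The nearest to bta-miR-10a were instead bta-miR-26a (r = 0.806), bta-miR-532 (r = 0.797) and bta-miR-320a (r = 0.782), with bta-miR-10b at position 4. Within groups, r for these 3 was 0.798, 0.648 and 0.536. bta-miR-26a, one of the most abundant miRNAs here, had 59060 ± 16150 normalized counts in SF at day 7 and means of 40010 to 44120 in the other groups. bta-miR-320a had a mean of 138 in DF at day 7, its lowest group, and 204 in SF at day 7, its highest. These correlations describe 12 libraries in 4 groups with shared size factors and were not tested.

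**Figure D4:**
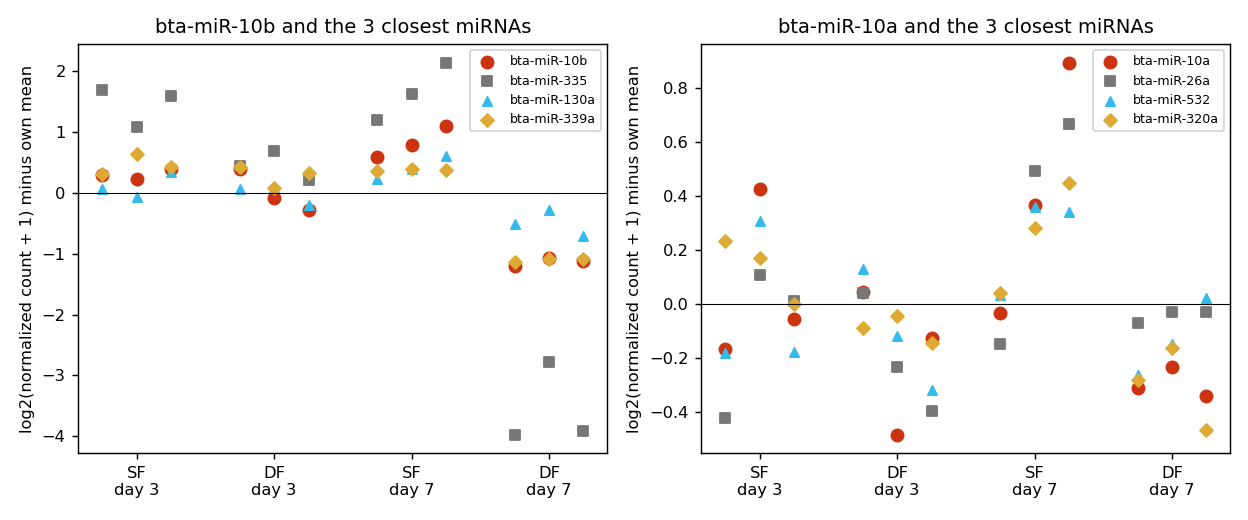
Level of bta-miR-10b, bta-miR-10a and the 3 miRNAs most like each, by library, as log2 of the normalized count relative to the miRNA's own mean. bta-miR-335, bta-miR-130a and bta-miR-339a drop with bta-miR-10b in the DF libraries at day 7, and bta-miR-335 drops furthest, to a group mean of 9.09 normalized counts.

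The miR-99 and miR-100 genes are relatives of the miR-10 family outside the Hox clusters, with mature sequences that resemble miR-10 shifted at the seed. bta-miR-99a-5p and bta-miR-99b were called higher in SF at day 7, by 1.27 (edgeR, adjusted p = 0.00112) and 1.09 (edgeR, adjusted p = 0.0134) on the log2 scale. Both were called lower in DF at day 7 than at day 3, with -1.004 (edgeR, adjusted p = 0.000838) and -1.69 (edgeR, adjusted p = 3.37e-05). bta-miR-100 went the other way, with -0.95 in SF against DF at day 7 (edgeR, adjusted p = 0.0425) and 0.60 in DF between the days (edgeR, adjusted p = 0.111), neither of which was called. The interaction was called for bta-miR-99b (1.19, edgeR, adjusted p = 0.00999) and, with the opposite sign, for bta-miR-100 (-1.57, edgeR, adjusted p = 0.00389), but not for bta-miR-99a-5p (0.53, edgeR, adjusted p = 0.121). At day 3 and between the days in SF, the log2 fold changes of the 3 lay between -0.94 and 0.62, short of the fold threshold. The p threshold was passed by bta-miR-99a-5p at day 3 (0.62, edgeR, adjusted p = 0.00160) and by bta-miR-100 at day 3 (0.51, edgeR, adjusted p = 0.0349) and in SF (-0.94, edgeR, adjusted p = 0.0377). bta-miR-615, which lies within HOXC5, had 4 reads in all and was not tested, so that of the Hox cluster miRNAs considered here those of the miR-10 family were the ones readily detected.

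The DF libraries at day 7 also differed from the others in miRNAs known as markers of cell types. The summed level of 3 miRNAs typical of the follicle and gonads (bta-miR-202, bta-miR-383, bta-miR-224) was 371 to 991 in DF at day 7 and 2326 to 3806 in the other groups, and bta-miR-383 was at 0 there. The 4 leukocyte miRNAs (bta-miR-142-5p, bta-miR-142-3p, bta-miR-150, bta-miR-223) summed to 783 to 8636 in DF at day 7 and to 108 to 705 elsewhere, with bta-miR-142-3p at 0 in both groups of day 3. The 3 listed for muscle and stroma (bta-miR-143, bta-miR-145, bta-miR-133a) summed to 6730 to 14200 against 2206 to 4911. Most of this sum was bta-miR-143, with a mean of 9997 in DF at day 7, whereas bta-miR-133a had 6.93 there. In edgeR, 3 of 3 follicle markers were called higher in SF at day 7, and 3 of 4 leukocyte and 2 of 3 stroma markers lower, where 33.4% of all miRNAs tested were called. DESeq2 called 2, 2 and 1 of them. Of those called by edgeR, bta-miR-383 (mean 0 in DF) and bta-miR-142-3p (mean 0.34 in SF) met the filter only through their higher group. That fixed their direction, so they are no separate support. In DF, 4 of 4 leukocyte and 3 of 3 stroma markers were called higher at day 7 and 2 of 3 follicle markers lower, where 40.3% of all miRNAs tested were called, and DESeq2 called as many in each list. Here bta-miR-142-3p (mean 0 at day 3) and bta-miR-133a (mean 0.41 at day 3) met the filter only through DF at day 7, which fixed their direction. These 3 lists had no call at day 3 or between the days in SF by edgeR or DESeq2, with 3 and 2 markers at an unadjusted p under 0.05 in edgeR.

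Of the other lists, the erythrocyte miRNAs (bta-miR-451, bta-miR-486, bta-miR-144) summed to 808 to 2322 in DF at day 7 and 315 to 1642 elsewhere, with bta-miR-144 at 0 in SF at day 7. Of the 2 tested at day 7, 2 were called lower in SF, where 33.4% of all miRNAs tested were called, and DESeq2 called 2. The endothelial pair bta-miR-126-3p and bta-miR-126-5p summed to 130 to 160 in DF at day 7 and 61.6 to 220.5 elsewhere. Of the pair, 1 was called higher in DF at day 7 than at day 3, also by DESeq2, where 40.3% of all miRNAs tested were called. The 5 epithelial miRNAs of the miR-200 family stayed at 0 to 21.5, the highest sum being in DF day 3 replicate 3. At day 3, 1 of them was called lower in SF, where 5.67% of all miRNAs tested were called, and DESeq2 called 0. It was bta-miR-141, with means of 0.41 in SF and 5.71 in DF. It met the filter only through DF, and the groups overlapped. Within DF at day 7 the leukocyte sum was 3110, 8636 and 783 in replicates 1, 2 and 3, while bta-miR-10b stayed between 14727 and 16216 normalized counts. The part of other cell types in the level of bta-miR-10b was not tested.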

How the data were processed

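The authors sequenced small RNA (TruSeq Small RNA kit, CASAVA 1.8.0 per the labels), removed adapters with cutadapt, mapped to the UMD 3.1 assembly and counted known miRNAs of miRBase with miRDeep2. They deposited raw read counts per mature and precursor pair, without normalization. For the 73 names with more than 1 precursor, where reads were counted repeatedly, the entry with the largest sum over the libraries was used. Groups and replicate numbers came from the sample labels. Replicates differed beyond sampling noise, the chi-square divided by its degrees of freedom being 10.2 to 128.

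miRNAs found (1 read or more) in 2 or 3 replicates of a compared group were tested on the counts in R 4.3.3 with edgeR 4.0.16, using the two-sided quasi-likelihood F test, median-of-ratios (RLE) factors, a prior count of 0.125 and Benjamini-Hochberg adjustment over all miRNAs tested. Pairwise fits used their own 6 libraries and the interaction all 12. Standard errors are the fold change divided by the square root of F. Normalized counts use size factors over all 12 libraries, so ratios of their means can differ from fitted values. Intervals (Wilson, 95%) and floors (3 reads) cover counting error only, since reads carried no molecular identifiers. The floors allow for it only in the group without reads. Ratios were compared by exact permutation.

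The miRNAs named were the 4 members, the 3 most alike for each member with a mean of at least 10, miR-10 relatives, miR-615 and cell type markers. The members and lists were chosen with earlier results of these data known. Alternatives were DESeq2 1.42.0, other scalings, filters, precursor handling and thresholds, a prior count of 2, a fit of all 12 libraries, a replicate block and leaving out each library. The fit was tested on simulated data. The places of miRNA genes among Hox genes were read from the RefSeq annotation of ARS-UCD2.0, another build than the authors', so no coordinates are given, and sequences were not used here.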

Additional observations from a re-analysis of the deposited data

Results flagged for a closer look

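The difference between SF and DF in bta-miR-10b was not the same on both days. The log2 difference at day 7 exceeded that at day 3 by 1.70 ± 0.24 (SE, interaction over 12 libraries, edgeR, adjusted p = 4.11e-05), from 0.23 at day 3 to 2.04 at day 7. The value lay between 1.52 and 1.94 over the alternatives and left-out libraries, and it was called in each of them.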

How the results depend on the processing

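bta-miR-10b kept its direction and its calls at day 7 (1.88 to 2.21) and in the interaction in every alternative and with each library left out. The number of members called at day 7 (2) was 1 with DESeq2, at least 10 reads in 3 libraries, a prior count of 2, a 5% false discovery rate or a replicate block, and 1 to 3 with a library left out. In DF (2) it was 1 with DESeq2 or the 10-read filter, and 0 to 2 with a library left out (0 without DF day 3 replicate 1, 1 without DF day 7 replicate 1). In the interaction (1) it was 2 with no filter, summed precursors or the block, and 1 to 2 with a library left out. It was 0 throughout at day 3 and in SF. These changes concern bta-miR-196a, which the 10-read filter drops, except that bta-miR-10a was called without SF day 7 replicate 1 and bta-miR-10b was not called in DF without DF day 3 replicate 1. Over all miRNAs, calls at day 3 (19) were 11 with DESeq2, 8 with all 12 libraries in 1 fit, 12 with the 10-read filter and 10 to 21 with a library left out (10 without SF day 3 replicate 1). Calls in DF (145) were 92 with the 10-read filter. Calls in SF (2) were 5 with DESeq2, 1 with all 12 libraries in 1 fit, 0 with the 10-read filter, 12 with no filter, 10 with every entry as listed, 1 with library size without the members' reads, 7 with the replicate block and 0 to 20 with a library left out. With that last scaling the median of all miRNAs in DF moved from 0.05 to -0.22 and calls from 88 higher and 57 lower to 73 and 75, with bta-miR-10b at -1.45. The sign turned for some values that were called in no fit. These were bta-miR-10a at day 3 (-0.0388 without SF replicate 2, and up to 0.35), bta-miR-196a at day 3 (0.85 without DF replicate 1, and down to -2.11), bta-miR-196b at day 3 (0.0324 without SF replicate 3, and down to -2.45) and bta-miR-196a in SF (0.15 with summed precursors, 1.40 without SF day 3 replicate 1, 0.17 without SF day 7 replicate 1, and down to -0.62). The log2 ratio of bta-miR-10b to bta-miR-10a ran from -0.14 to 0.26 at day 3 and from -0.0362 to 0.29 in SF with a library left out. The causes were not tested. Correlations of deviations between libraries of the same replicate number ran from -0.159 to 0.145. Only for SF against DF at day 7 was every library closest to its own number (0.132, 0.0801 and 0.145). Whether those libraries are paired is not resolved, and the main fits did not pair them. The replicate block changed no call of bta-miR-10a or bta-miR-10b. Depth limits bta-miR-196a and bta-miR-196b, whose differences rest on 24 and 7 reads.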
